A study of Mus musculus with 2 samples.

Results

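The transcripts of Dnajb14, Unc13d, Rab33b, Map4, Ube2d3, Snf8, 2310058D17Rik and Gm37750, which carry a B2 repeat in the direction of transcription, were followed in single mouse embryonic stem cells before and during alternative lengthening of telomeres (ALT). They were 8 of the 38458 gene columns in both count tables. They were chosen by their high ratio of PD800 over PD100 in these libraries together with the repeat, so their ratios are a description and support nothing. The cells were E14 embryonic stem cells with a Terc knock-out (Terc is the RNA template of telomerase), of the line DKO741, 1 of 2 knock-out lines that were recovered. Stocks of these lines were kept on embryonic fibroblast feeders, and feeder-free cells were used for experiments. The label of the PD100 library gives passage 100, before ALT was active, and that of the PD800 library gives passage 800, long after survivors by ALT had emerged. There was 1 inDrops library per time point (droplet capture with a unique molecular identifier, UMI, on each captured transcript), so no test could be made and library preparation cannot be told apart from time in culture. All intervals are 95% intervals for counting error only.

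B2 is a short interspersed repeat of rodents that derives from a tRNA gene. Free B2 copies are transcribed by RNA polymerase III from an internal promoter with an A box and a B box, and B2 RNA is known to be induced by stress and by loss of silencing. Many more copies lie inside introns and 3′ UTRs of ordinary genes, where RNA polymerase II transcribes them as a stretch of a longer RNA. A short read from within the repeat can match several genes, and how such reads were assigned is not given in the sources used here. A UMI counted for a member may therefore be a read from its mRNA, from its repeat copy, or from a copy elsewhere.

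In the reference transcripts, 40 overlapping stretches of 20 bases formed the repeat family that all 8 members shared. A gene was said to carry the repeat where its transcripts held at least 10 of them in sense, which was so for 305 of 55341 genes (0.551%). Every member had 1 transcript with the repeat, of up to 17 annotated ones (Map4). The repeat was recognized from the members themselves, and the name B2 rests on general knowledge, since no repeat annotation was used. Its most alike stretch of 30 bases is shown for the members below because it was identical in 7 of the 8. The capital marks the base that differs from the copy in Dnajb14, with coordinates in GRCm38.
Dnajb14, chr3:137914122-137914151, plus strand: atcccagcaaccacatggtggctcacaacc
Gm37750, chr9:104053371-104053400, plus strand: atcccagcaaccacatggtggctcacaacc
2310058D17Rik, chr11:58966228-58966257, minus strand: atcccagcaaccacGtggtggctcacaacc

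A second stretch of the repeat separated the members, and it is shown because the differences single out Ube2d3. Capitals again mark bases unlike Dnajb14. The copies of Map4, Snf8 and Gm37750 had no difference from it, those of Rab33b and 2310058D17Rik had 1, that of Unc13d had 2, and that of Ube2d3 had 4.
Dnajb14, chr3:137914589-137914618, plus strand: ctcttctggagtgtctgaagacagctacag
Rab33b, chr3:51496149-51496178, plus strand: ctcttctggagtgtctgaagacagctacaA
Unc13d, chr11:116075462-116075491, minus strand: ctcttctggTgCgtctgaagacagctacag
Ube2d3, chr3:135460275-135460304, plus strand: ctcttctggTgCgtctgaCTacagctacag

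The members fell into 3 kinds by where the repeat lay. In Dnajb14 and Rab33b it was in the 3′ UTR of the coding mRNA. Dnajb14 had 2 copies in its long 3′ UTR (chr3:137914058-137914238 and chr3:137914473-137914653), which ended 2319 and 1904 bases before the end of the transcript. The Rab33b copy (chr3:51496032-51496213) ended 19 bases before the transcript end.

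In Unc13d, Map4, Snf8 and Ube2d3 the repeat lay in an exon of a noncoding transcript and inside introns of some or all coding ones. It was intronic in 4 of 6 coding transcripts of Unc13d, in 2 of 13 of Map4 and in 2 of 2 of Snf8. The copies of Unc13d (chr11:116075423-116075608), Map4 (chr9:110027926-110028107) and Snf8 (chr11:96039702-96039878) closed short processed transcripts, with 26, 14 and 0 bases left. That of Ube2d3 (chr3:135460160-135460336) was in a retained intron, 350 bases before the end, and was intronic in 8 of 10 coding transcripts. In these 4 genes the coding mRNA as annotated does not contain the repeat. 2310058D17Rik, a noncoding RNA, matched the family over 52 bases (chr11:58966155-58966206), beside the stretch shown above, within a transcript that overlaps Trim17 on the other strand.

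Gm37750, a provisional entry of the annotation on chromosome 9 (chr9:104053327-104053455, plus strand), consists of the repeat from end to end. It overlaps Gm28305 on the same strand. Its whole transcript of 129 bases is given, since every count of this gene is a count of repeat sequence. Capitals mark its match to the B box of RNA polymerase III promoters.
Gm37750: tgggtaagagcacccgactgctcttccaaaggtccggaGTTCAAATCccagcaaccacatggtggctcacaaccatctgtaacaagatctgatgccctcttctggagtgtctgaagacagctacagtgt

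Windows of 200 bases around the 9 copies were searched in sense for 3 motifs. The B box (GTTCNANNC) was found at 8 copies in 7 members and in 3.65% of all windows of that length in the reference transcripts. The A box (TGGCNNAGT) was found at 6 copies in 5 members and in 1.60% of windows. The polyadenylation signal AATAAA was found at 8 copies in 7 members and in 8.34% of windows. The copies were found by sequence that they share, so the same motif at several copies is not several separate observations. No enrichment over all windows is read from these counts. These matches describe the letters and are not evidence of use.

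The filter stated for these data, at least 1000 UMIs and at most 20% mitochondrial UMIs, left 814 PD100 cells with 1826233 UMIs and 900 PD800 cells with 2580963 UMIs. Median depth was 2151 and 2701.5 UMIs per cell. All 10 embryonic stem cell markers were detected in both libraries, at summed levels of 11903 and 12610 CPM (counts scaled to the same library total). Terc had 0 UMIs in both, where 3 counts would be 1.64 and 1.16 CPM. Whether the method captures Terc RNA was not tested, so this 0 is no check of the knock-out. Extraembryonic endoderm markers summed to 1111 CPM in PD100 (15 of 15 detected) and to 149 CPM in PD800 (13 of 15, with Gata6 and Srgn at 0), and fibroblast feeder markers to 16.4 and 13.2 CPM. The median mitochondrial share was 1.23% and 4.42%. Between the barcode lists 21 barcodes were shared, 8 of them among cells. Genes with a total of 50 UMIs or more in the cells of both libraries are called tested genes. There were 6984 of them, and their median log2 ratio of CPM, PD800 over PD100, was -0.34.

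Summed over the 8 members there were 7226 UMIs in PD100, or 0.396% of that library, and 70021 in PD800, or 2.71%, a log2 ratio of 2.78 (2.74 to 2.81). All 8 passed the minimum of 50 UMIs. In PD800 all had a level 4-fold higher or more, and 4 of them (Unc13d, Map4, 2310058D17Rik and Gm37750) were 8-fold or more. Of all tested genes, 9.22% were at least 2-fold higher, 3.54% at least 4-fold and 0.616% at least 8-fold, and 16.9% were at least 2-fold lower. Relative to the median of tested genes, 13.9% were 2-fold higher and 7.79% were 2-fold lower. Because the ratio chose the members, nothing is read from these counts.

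The members with the repeat in the 3′ UTR of the mRNA are given first. Dnajb14, a membrane-bound J-domain protein that assists the HSP70 chaperone at the endoplasmic reticulum, was counted 2104 times in PD100 (1152 CPM, 1103 to 1202) and 22383 times in PD800 (8672 CPM, 8559 to 8787), a log2 ratio of 2.91 (2.85 to 2.98). Rab33b, a small GTPase of the Golgi and of autophagosome formation, had 1041 and 9911 UMIs, or 570 and 3840 CPM, a log2 ratio of 2.75 (2.66 to 2.85). The level in PD800 lay far outside the counting interval of PD100 in both.

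Of the members with the repeat in a noncoding transcript, Unc13d, a priming factor for the release of cytotoxic granules, had 1098 and 13548 UMIs (601 and 5249 CPM), a log2 ratio of 3.13 (3.04 to 3.22). Map4, a microtubule-associated protein, had 547 and 6574 UMIs (300 and 2547 CPM), a log2 ratio of 3.09 (2.96 to 3.22). Snf8, a subunit of the ESCRT-II complex that sorts membrane proteins into endosomes, had 1003 and 7702 UMIs (549 and 2984 CPM), a log2 ratio of 2.44 (2.35 to 2.54). These genes differ widely in what their proteins do, and Unc13d is best known from blood cells.

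Ube2d3, a widely expressed ubiquitin-conjugating enzyme, had the smallest ratio of the members. Its 1279 PD100 UMIs (700 CPM, 662 to 740) stood against 7656 in PD800 (2966 CPM, 2900 to 3034), a log2 ratio of 2.08 (1.997 to 2.17). Its interval did not touch that of any other member. Next to it by ratio among genes with the sense repeat were Rpap1 just above (2.10, 82 and 497 UMIs) and C730034F03Rik just below (2.08, 28 and 167 UMIs), and 84 genes with the repeat that are not members had a ratio at least as high.

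Both noncoding members with few counts had wide intervals. Gm37750 had 153 and 2176 UMIs (83.8 and 843 CPM), a log2 ratio of 3.33 (3.09 to 3.58). For 2310058D17Rik a single PD100 UMI (0.548 CPM) stood against 71 in PD800 (27.5 CPM). Its log2 ratio of 5.65 (3.13 to 10.97) was the highest of all tested genes and rests on that 1 UMI. By ratio the members took ranks 1 to 228 of 6984 tested genes, and ranks 1 to 92 of 228 with the sense repeat.

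**Figure D1:**
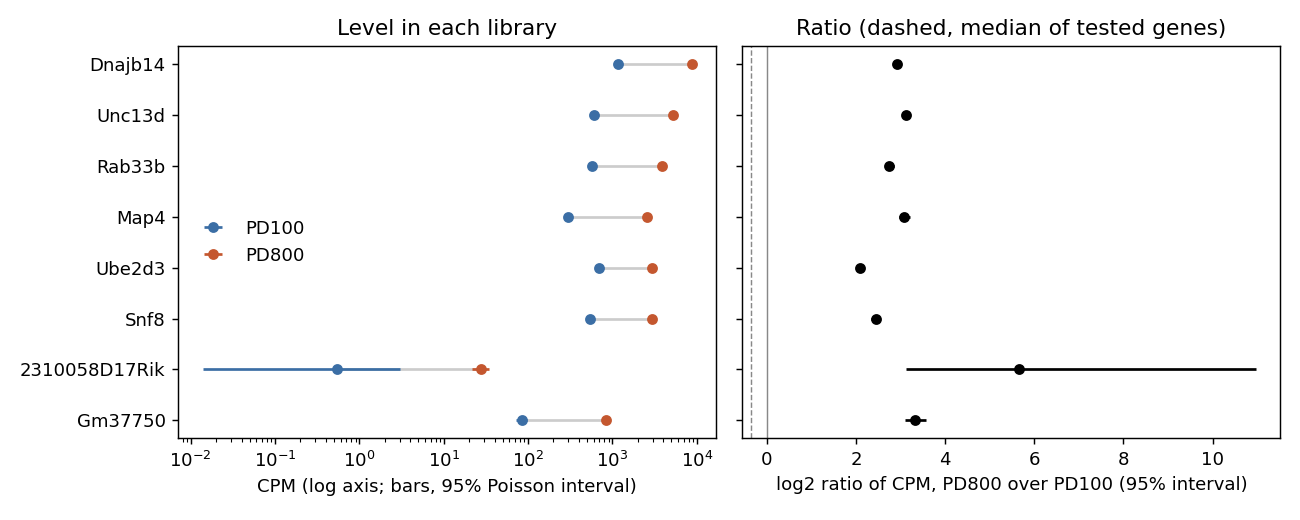
Left, CPM of each member in the PD100 and PD800 libraries on a log axis, with exact Poisson intervals; right, log2 ratio of CPM, PD800 over PD100, with exact conditional intervals and a dashed line at the median of tested genes (-0.34). All 8 members lie to the right of 0, Ube2d3 lowest at 2.08, and 2310058D17Rik has the widest interval because of its 1 PD100 UMI.

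Counts were next compared in single cells at equal depth, after each cell had been thinned at random to 1000 UMIs. At least 1 UMI of a member was present in 94.2% of PD100 cells (767 of 814, exact binomial interval 92.4 to 95.7) and in 100% of PD800 cells (900 of 900, 99.6 to 100). The summed count had a median of 3 UMIs per PD100 cell (5th to 95th percentile 0 to 9.35) and of 24 per PD800 cell (11 to 47). The PD100 cells reached at most 15 UMIs, and 765 of the 900 PD800 cells (85.0%) lay above that. A single PD800 cell was at or under the PD100 median, and no PD100 cell reached the PD800 median. Nearly all PD800 cells had higher counts of the members than most PD100 cells. The members were chosen by their ratio between these libraries, so this separation is a description and supports nothing. PD800 barcodes below the filter held the members at 24885 CPM, beside 27130 CPM in cells, and how far free RNA in droplets added to the counts of single cells was not tested.

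**Figure D2:**
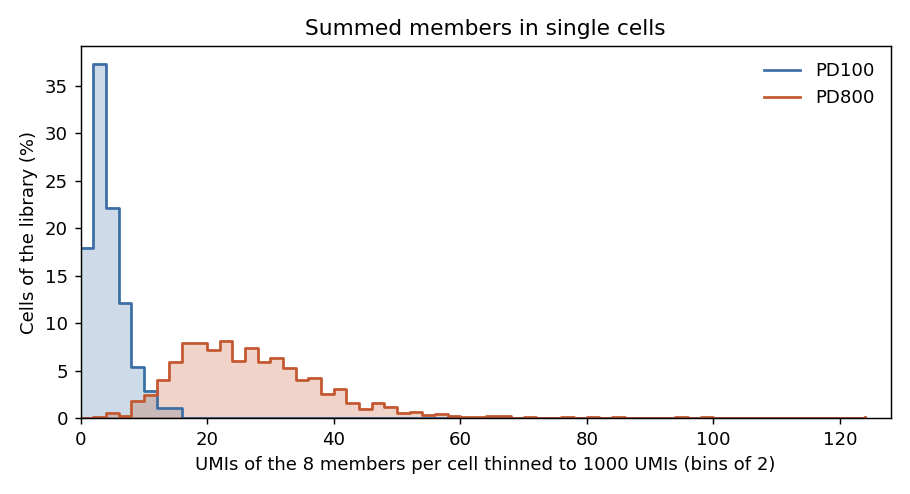
Share of cells of each library (%) by the summed UMIs of the 8 members in a cell thinned to 1000 UMIs, in bins of 2 UMIs. PD100 cells are packed at the left around a median of 3, and PD800 cells spread around a median of 24 with a tail up to 125.

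The same held for most single members. Dnajb14 was detected in 61.8% of thinned PD100 cells (58.4 to 65.1) and in 99.4% of PD800 cells (98.7 to 99.8). Unc13d was detected in 41.6% and 95.8%, Rab33b in 41.03% and 95.2%, and Map4 in 23.3% and 85.7%. Snf8 was detected in 36.7% and 89.4% of cells.

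Ube2d3 had a share of 44.8% in PD100 (41.4 to 48.3) and 91.6% in PD800 (89.5 to 93.3). Gm37750 was detected in 7.37% of PD100 cells (5.67 to 9.39) and in 49.2% of PD800 cells (45.9 to 52.5). 2310058D17Rik was found in 0 of 814 thinned PD100 cells, where 3 counts would allow up to 0.369% of cells to have a UMI at this depth, and in 19 of 900 PD800 cells (2.11%, 1.28 to 3.28). Without thinning it was found in 1 PD100 cell and in 66 PD800 cells, so its share followed depth. A background share could not be given, for want of cells known not to express the members.

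Shares of the members in their summed UMIs show whether they kept their proportions. Ube2d3 made up 17.7% of the UMIs in PD100 (16.8 to 18.6) and 10.9% in PD800 (10.7 to 11.2). Snf8 went from 13.9% to 11.0%. Their shares were lower in PD800, and the intervals did not meet.

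Unc13d made up 15.2% in PD100 and 19.3% in PD800, Dnajb14 29.1% and 32.0%, Map4 7.57% and 9.39%, and Gm37750 2.12% and 3.11%. Their shares were higher in PD800, again with intervals apart. Rab33b had 14.4% (13.6 to 15.2) and 14.2% (13.9 to 14.4), which could not be told apart. In barcodes below the cell filter Ube2d3 made up 20.7% (18.1 to 23.5) of 889 member UMIs in PD100 and 10.8% (10.3 to 11.4) of 11407 in PD800, so its lower share in PD800 was found there too. Gm37750 made up 3.60% (2.47 to 5.04) and 3.41% (3.08 to 3.76) in those barcodes, which could not be told apart, unlike in cells. The proportions of the members thus differed between the libraries.

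Within each library the members were then correlated across cells. If the counts of several genes came from 1 source and were split between them in a fixed way, they would keep 1 ratio from cell to cell apart from counting error. In PD800, all 28 pairs had a positive Pearson r over 900 cells, with a median of 0.20 (0.0074 to 0.51). The highest was 0.51, between Dnajb14 and Unc13d. The 7 pairs with 2310058D17Rik, present in few cells, lay between 0.0074 and 0.086, and in sparse counts such a weak r is no finding. In PD100 the 21 pairs that could be computed over 814 cells had a median of 0.089 (0.025 to 0.22), at far lower counts. Pairs of genes without the repeat, at a mean of 0.1 thinned UMI or more per PD800 cell, had a median of -0.00098, with 5th and 95th percentiles of -0.052 and 0.058. Pairs of other sense-repeat genes at that mean had a median of 0.029 in PD800. For pairs of a member with 1 of these genes it was 0.080. Counting error lowers r at low counts, and most members had counts well above that minimum. All cells of a library share its preparation, and all were thinned to the same total.

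**Figure D3:**
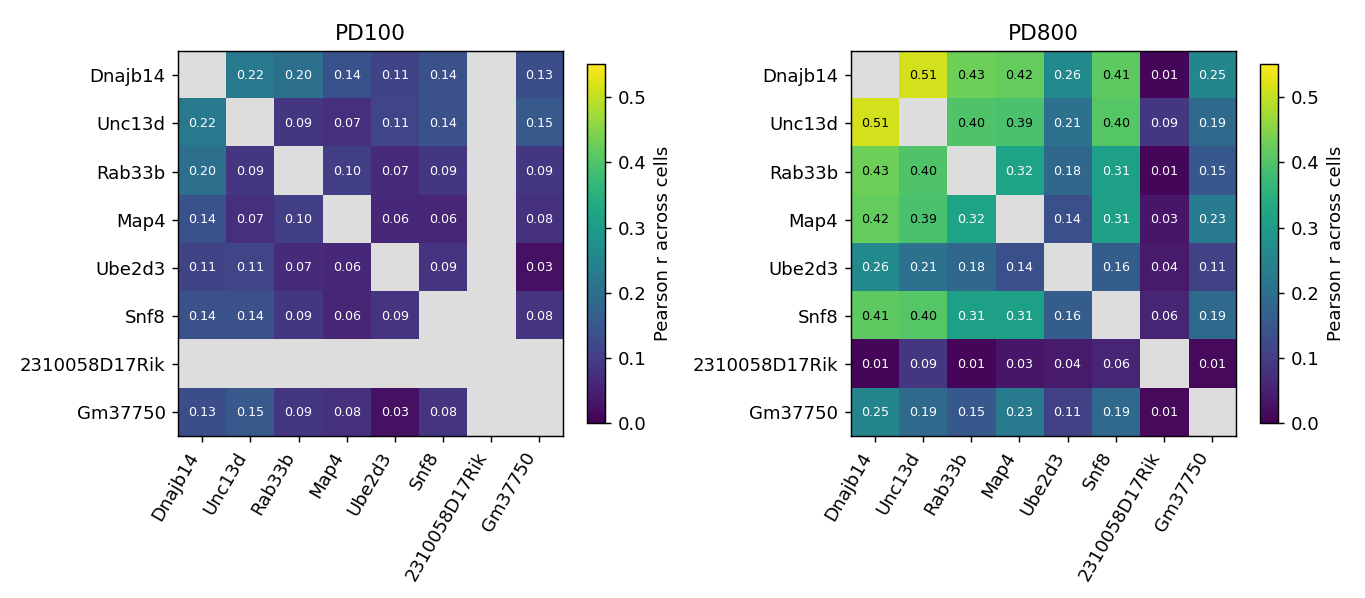
Pearson r across cells for each pair of members in PD100 (left, 814 cells) and PD800 (right, 900 cells), on counts thinned to 1000 UMIs per cell; grey fields have no value, since 2310058D17Rik had 0 thinned UMIs in PD100. In PD800 the block of Dnajb14, Unc13d, Rab33b, Map4 and Snf8 holds the highest values (0.31 to 0.51). The rows of Ube2d3 (0.11 to 0.26) and Gm37750 (0.11 to 0.25) hold lower values, leaving out pairs with 2310058D17Rik.

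To remove counting error, the covariance of a pair was divided by the product of the means and set against the variance of each gene beyond counting, on the same scale. Both are equal when a pair keeps 1 ratio. In PD800 this covariance had a median of 0.175 over the 28 pairs of members. The median was 0.138 for members with other sense-repeat genes, 0.099 among those genes and -0.004 among genes without the repeat. For Dnajb14, Unc13d, Rab33b, Map4 and Snf8 in PD800 the 10 pairs gave covariances of 0.161 to 0.212, and the variances of the 5 genes beyond counting were 0.174 (Rab33b) to 0.255 (Map4). The correlation beyond counting was 0.77 to 0.86 in these pairs. A pair with 1 fixed ratio would have a correlation beyond counting of 1. No interval was computed for these values, and their distance from 1 was not tested.

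Ube2d3 stood apart. Its 5 pairs with those genes gave covariances of 0.077 to 0.104 against a variance of its own of 0.146, and a correlation beyond counting of 0.40 to 0.60. Gm37750, at a mean of 0.801 UMIs per thinned PD800 cell, gave covariances of 0.130 to 0.237 with the same 5 genes, which overlap theirs. Its own variance beyond counting was 0.422, and the correlation 0.48 to 0.72. In PD100 the 10 pairs of the 5 genes gave 0.48 to 1.11 beyond counting and the pairs of Ube2d3 0.39 to 0.52. A correlation above 1 is impossible, and such values come from the low counts of PD100.

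The members also moved with other genes that carry the repeat. Over cells, the summed count of the members had an r of 0.83 with the summed count of all other sense-repeat genes in PD800 and of 0.38 in PD100. With genes lacking the repeat it was -0.76 and -0.24, which the fixed total of 1000 UMIs per cell helps to set. Other quantities went less closely with the members: in PD800 r was 0.12 with mitochondrial UMIs, 0.13 with the depth before thinning and -0.36 with ribosomal protein genes. In PD100 these were 0.14, 0.057 and -0.081.

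Cells were split at the median count of the other sense-repeat genes, which left 462 lower and 438 higher PD800 cells. Mean thinned UMIs of Dnajb14 were 6.22 in the lower and 11.3 in the higher cells, a log2 ratio of 0.86 (0.79 to 0.92). The ratio was 0.89 (0.81 to 0.98) for Unc13d, 0.81 (0.71 to 0.92) for Rab33b and 0.90 (0.78 to 1.03) for Map4. It was 0.88 (0.77 to 1.00) for Snf8 and 0.86 (0.64 to 1.08) for Gm37750. These 6 intervals overlapped.

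Ube2d3 was again lower, at 2.48 and 3.37 UMIs and a log2 ratio of 0.44 (0.33 to 0.55), and its interval lay below those of the other 6. In PD100 the ratio of Ube2d3 was 0.22 (-0.03 to 0.47), and its interval overlapped those of Snf8 (0.40), Gm37750 (0.43), Rab33b (0.51) and Unc13d (0.56). It lay below those of Dnajb14 (0.89, 0.69 to 1.09) and Map4 (0.92, 0.51 to 1.33). For 2310058D17Rik, 6 and 13 UMIs could not be told apart (1.19, -0.30 to 2.87).

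**Figure D4:**
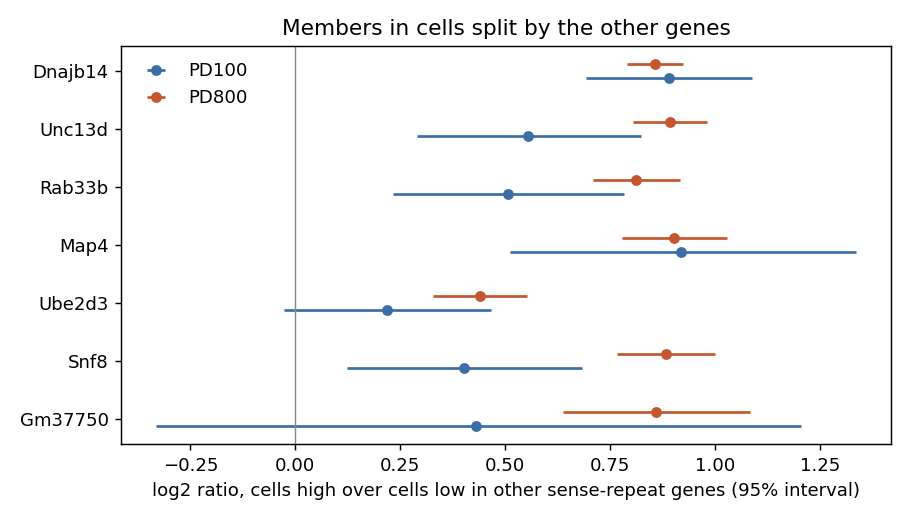
Log2 ratio of the mean thinned count of each member in cells above over cells below the median of the other sense-repeat genes, with 95% counting intervals, for PD100 and PD800; 2310058D17Rik is not drawn. In PD800 the ratios of 6 members lie between 0.81 and 0.90 and that of Ube2d3 at 0.44.

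When PD800 cells were split by mitochondrial share, the log2 ratio of the summed members was 0.06 (0.03 to 0.10), and by depth 0.15 (0.12 to 0.19). In PD100 these were 0.29 (0.19 to 0.40) and 0.10 (-0.002 to 0.20). Their part in the difference between libraries was not tested.

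Among the genes most like the members across PD800 cells, of 1612 ranked by r with the summed members, were A230046K03Rik (0.52), Ttf1 (0.50), BC051077 (0.50) and Casc4 (0.47). Their log2 ratios of PD800 over PD100 ran from 2.77 (Casc4) to 3.18 (A230046K03Rik). Ttf1, BC051077 and Casc4 carried the sense repeat by the rule used here. A230046K03Rik had no transcript in the reference. At the other end were Hsp90aa1 (-0.18), Ybx1 (-0.17) and Hspa8 (-0.16), none of which held the repeat.

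The members were next set beside the remaining genes with the same repeat. Of 220 other tested genes carrying it in sense, 138 (62.7%) had a level 2-fold higher or more in PD800 and 7 had one 2-fold lower or more, with a median log2 ratio of 1.77. Of 145 genes with it in antisense only, 9 were higher and 18 lower, with a median of -0.28. Of 6415 genes without it, 7.14% were higher, with a median of -0.37. The 220 genes held 2.34% of the UMIs in PD100 and 6.86% in PD800.

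The ratios of the 220 genes were unevenly spread. In steps of 0.5 from a log2 ratio of 0 to one of 3 there were 29, 22, 13, 33, 43 and 38 genes, with the fewest between 1 and 1.5. Among genes with at least 200 UMIs the highest were Gm45184 (3.59, 16 and 272 UMIs), Gm26916 (3.41) and Cxcr2 (3.31), and among the lowest were Ctsl (-1.90, 647 and 245 UMIs) and Ash2l (-1.33). Carrying the sense repeat in the reference therefore did not go with a higher count in every gene.

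**Figure D5:**
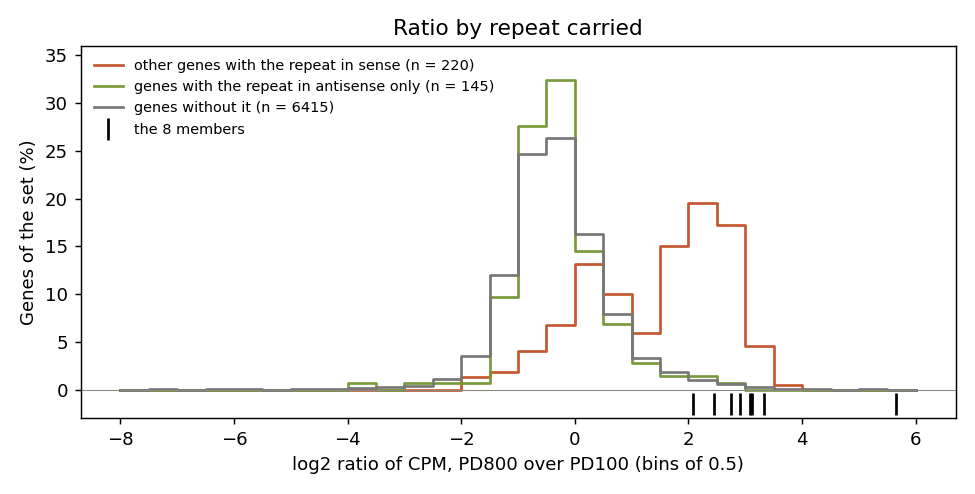
Share of genes (%) by log2 ratio of CPM, PD800 over PD100, in bins of 0.5, for tested genes with the repeat in sense, in antisense only, or without it; black ticks mark the members. Genes with the sense repeat have their main peak between 2 and 2.5 (43 of 220 genes) and a smaller one between 0 and 0.5 (29 genes), and the other sets peak below 0.

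The ratio of these genes had no steady order by the place of the repeat or by the number of family stretches found, a measure of likeness to the family and not of length. By distance from the repeat to the transcript end, the median log2 ratio was 1.73 under 50 bases (89 genes) and 1.85 at 2000 bases or more (31 genes), with 1.36 to 2.05 between them. By the number of repeat stretches of 20 bases it was 1.48 at 10 to 14 (36 genes), 1.23 at 15 to 19 (68 genes), 1.87 at 20 to 29 (78 genes) and 2.20 at 30 or more (38 genes). The members themselves ranged from 0 to 1904 bases, by the copy nearest the transcript end, and from 17 to 40 stretches.

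How far a read from the repeat could be traced to its gene was described by windows of 50 bases, the length of a read in this study. Of the windows inside the repeat, 100% occurred in another gene's transcript for Rab33b (133 windows), Gm37750 (80) and 2310058D17Rik (3 windows only). The share was 93.8% for Snf8, 89.9% for Dnajb14, 75.2% for Unc13d and 69.9% for Map4. It was 15.6% for Ube2d3, whose copy differed most in the stretch shown above. Over whole transcripts, 0.688% (Map4) to 9.99% (Snf8) of windows were shared, apart from Gm37750, where all 80 were. Over the last 500 bases of transcripts the share ran from 0% (Dnajb14) to 15.8% (Snf8), again apart from Gm37750. Where in the transcripts the reads lay was not determined. The counts of these members, Gm37750 above all, are therefore uncertain as counts of single genes.

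Genes beside the members on the chromosome were compared, since a change of a whole region would include them. The 5 tested genes on either side had median log2 ratios, relative to all tested genes, of 0.00 for Unc13d, -0.17 for Map4, -0.08 for Snf8, -0.53 for 2310058D17Rik and 0.19 for Gm37750. For the 3 members on chromosome 3 they were 0.32 (Rab33b), 0.72 (Dnajb14) and 0.78 (Ube2d3). Dnajb14 and Ube2d3 lie close together and shared some of these neighbours. The nearest tested genes of Dnajb14 were H2afz (plain log2 ratio 0.41, 0.36 to 0.46) and Lamtor3 (0.13, -0.17 to 0.43). Cisd2 and Manba beside Ube2d3 had 0.46 and 0.73. Of the genes directly beside a member, Gm42432 next to Map4 had the highest value (1.26, 0.58 to 2.002). Farther out the plain ratios reached 1.78 within 5 genes of Ube2d3 and 3.17 within 10 genes of Rab33b, above that of Rab33b itself. Within 10 genes of Dnajb14, 6 of 20 were at least 2-fold higher, beside 9.22% of all tested genes.

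Lists of factors known to act on such RNAs were described by their counts, on the plain log2 scale, beside 9.22% of all tested genes 2-fold higher and 16.9% lower. Of 23 tested subunits and factors of RNA polymerase III, 1 was at least 2-fold higher (Polr3gl, 1.23) and 5 lower, with a median of -0.59. Relative to the median of tested genes 2 were higher and 3 lower. Of 20 genes of repeat silencing, 0 were higher and 5 lower, with a median of -0.34, equal to that of all tested genes. Relative to that median 0 were higher and 1 lower. The lowest was Dnmt3b, a de novo DNA methyltransferase (-2.24, -2.72 to -1.78). Of 16 genes of the RNA exosome and its adaptors, which degrade nuclear RNA, 1 was higher and 2 lower, with a median of -0.55.

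The member of the exosome list with the highest ratio, Exosc2 (2.45, 2.32 to 2.59, 524 and 4050 UMIs), itself carries the sense repeat, so its count has the same uncertainty as the members. The lowest, Dis3 (-1.57, -2.14 to -1.02), carries it too. Of 18 genes of 3′ end processing, 2 were higher (Papola highest, 1.53) and 2 lower, with a median of -0.17. Of 7 genes of editing and nuclear retention, 0 were higher and 1 lower (median -0.64), and of 6 nuclear-retained RNAs, Meg3 was higher (1.20) and Neat1 lower (-1.15), with a median of -0.62.

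Of 14 tested partners and paralogues of the members, 0 were at least 2-fold higher and 3 lower, with a median of -0.47, and relative to the median of tested genes 1 was higher and 1 lower. Nothing particular to the list is read from these counts. Vps36, the partner of Snf8 in ESCRT-II, had a log2 ratio of -1.24 (-1.48 to -0.99), and Vps25 one of -0.91. Ube2d2a, a close paralogue of Ube2d3, had 0.53 (0.33 to 0.73). Stxbp2, which acts with Unc13d in granule release, had the highest value of this list at 0.78 (0.51 to 1.06).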

How the data were processed

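The authors processed the reads with the inDrops pipeline, by mapping to a transcriptome made from GRCm38, and deposited raw UMI counts per barcode and gene for each library. The submitters' processing notes name Scanpy and mm10. The annotation release and the treatment of reads that match several genes were not given in the sources used here. All 38458 columns were used, 37 of them mitochondrial by name, and all values were whole numbers. The tools were Scanpy 1.11.5, matplotlib 3.10.9, pandas 2.3.3, SciPy 1.17.1 and NumPy 2.4.6 under Python 3.11.15.

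Barcodes under 1000 UMIs or over 20% mitochondrial UMIs were left out. The study states fewer cells than this filter left in either library, for a reason not given in the sources used here. Counts were summed per library and scaled to CPM. Intervals were exact Poisson for levels, exact conditional (Clopper-Pearson) for ratios and exact binomial for shares. Cells were thinned to 1000 UMIs with seed 1, and 3 counts served as the floor. PD100 to PD800 was the only comparison; with 1 library per group no test was made. Scrublet at an expected rate of 5% marked 14 PD100 and 8 PD800 cells, which were kept.

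Repeat stretches were 20-mers found in sense in at least 3 members and 50 genes of GENCODE M21 transcripts (GRCm38), leaving out those with over 12 equal bases or under 8 different triplets, and were joined by overlap into families; the family in most members was used. Symbols matched 36860 columns and 6788 tested genes. Named genes were the members, the 5 genes most correlated with them, list members, nearest tested neighbours, and the 3 highest and 3 lowest sense-repeat genes; some of them are not reported here. The members and lists were chosen with earlier results of these data known. Steps were tested on simulated data.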

Additional observations from a re-analysis of the deposited data

Results flagged for a closer look

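Barcodes under the cell filter, which entered no ratio in the report, also held the members. The 477 PD100 barcodes with 246800 UMIs had 889 UMIs of the 8 members (3602 CPM, 3369 to 3847), and the 766 PD800 barcodes with 458381 UMIs had 11407 (24885 CPM, 24431 to 25346). The log2 ratio was 2.79 (2.69 to 2.89), against 2.78 in cells. Gm37750 reached 130 CPM (88.7 to 183) and 849 CPM there, against 83.8 and 843 CPM in cells, and its log2 ratio was 2.71 (2.19 to 3.28) against 3.33. Whether these barcodes were small cells or droplets with free RNA was not tested.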

How the results depend on the processing

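All 8 members stayed at least 2-fold higher in PD800 under each of 8 alternatives, with log2 ratios of 2.05 (Ube2d3) to 5.99 (2310058D17Rik). The summed log2 ratio of 2.78 became 3.12 with median-of-ratios scaling, which set the median of tested genes to -0.0004, 2.83 on the total without mitochondrial genes, 2.88 on the total of genes without the repeat and 2.72 without Dnajb14. The mean share of cells over the members, 32.1% and 76.1%, was 48.8% and 84.6% without thinning and 48.7% and 83.6% at 2000 UMIs. In barcodes under the filter Dnajb14 made up 27.8% and 32.6% of member UMIs and Ube2d3 20.7% in PD100. The median r between members was 0.060 (PD100) and 0.18 (PD800) with another seed, 0.28 at 2000 UMIs and 0.17 by Spearman's rho in PD800, and 0.096 in PD100 without shared barcodes. The r of the summed members with the summed other sense-repeat genes was 0.40 in PD100 with another seed. At 2000 UMIs that r was 0.54 (PD100) and 0.88 (PD800), and the cause was not tested. Thinning to 2000 UMIs left out cells with fewer, so all values at 2000 UMIs come from a part of the cells. Sense-repeat genes at least 2-fold higher numbered 80 of 116 at 20 or more stretches, 78 of 125 by the longest transcript alone and 252 of 479 with all families of repeat stretches (chosen after seeing the data, as were the settings on shared barcodes and on the other sense-repeat genes). Shared windows inside the repeat had a median of 91.8% over members at 50 bases and 99.1% at 36. The median of 3′ end processing genes turned from -0.17 to 0.17 with median-of-ratios scaling, by the shift of that scaling. With that scaling 973 tested genes were at least 2-fold higher and 544 lower, against 644 and 1178. No paired analysis was possible because each group had 1 library. At 2000 UMIs the PD100 median r was 0.086, against 0.089 at 1000. Depth limits what can be said of 2310058D17Rik.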
